A study of Mus musculus with 8 samples.

Results

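The unfolded protein response and the integrated stress response are described here through 10 genes, Atf4, Ddit3, Trib3, Chac1, Asns, Hspa5, Hsp90b1, Dnajb9, Xbp1 and Atf6. They were taken by symbol from a table of counts for 25240 mouse gene symbols, each symbol matched 1 row, and all 10 were among the 14284 genes with enough counts to be tested. Kidney cells of p16-tdTomato mice were sequenced as 4 Tomato-positive and 4 Tomato-negative libraries, after food rich in adenine had given all the mice chronic kidney disease. The genotype's name joins p16, a cell cycle inhibitor of senescent cells that the Cdkn2a gene encodes, with a red fluorescent protein. All 8 libraries share the genotype and the disease, and the labels give all of them as proximal tubular epithelial cells. The strain, the age, the sequence that drives the reporter and the way the cells were sorted are not stated in the labels. Each of the identifiers CKD523_2, CKD523_3, CKD627_1 and CKD627_2 is carried by 1 Tomato-positive and 1 Tomato-negative library, and the labels say neither what the prefixes CKD523 and CKD627 mean nor that the libraries came from separate animals. The p-values therefore measure the spread between these libraries, which may be technical.

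When unfolded proteins collect in the endoplasmic reticulum, the membrane sensors PERK, IRE1 and ATF6 start the unfolded protein response. PERK and other kinases that sense lack of amino acids or heme, or viral RNA, phosphorylate the initiation factor eIF2, which lowers translation in general while the Atf4 transcript is translated more, and the ATF4 protein then switches on genes of amino acid supply, redox balance and cell death; this branch is the integrated stress response. IRE1 splices the Xbp1 transcript and ATF6 is cut free from the membrane, and both factors switch on chaperones and enzymes that fold, export or degrade proteins of the reticulum. Counts per gene show transcript levels and neither the translation of Atf4, the splicing of Xbp1 nor the cutting of ATF6.

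Some promoters of both kinds of target carry letters that these factors are known to bind, and those with a match are shown so that the chaperones and the ATF4 targets can be set side by side in sequence. RefSeq promoter sequences (GRCm38.p6) were on hand for 9 of the 10 genes, and the 250 bases before the start were searched on both strands. The endoplasmic reticulum stress element, bound by ATF6 and XBP1 together with the factor NF-Y, was searched as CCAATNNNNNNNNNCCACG, where N is any base. The C/EBP-ATF response element, bound by ATF4 with a C/EBP partner, was searched as TGATGNAA. Each line below runs 5′ to 3′ along the gene's own strand, with the matches in capitals.
Hspa5, chr2:34772019-34772048, plus strand: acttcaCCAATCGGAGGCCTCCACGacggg
Hsp90b1, chr10:86705510-86705694, minus strand: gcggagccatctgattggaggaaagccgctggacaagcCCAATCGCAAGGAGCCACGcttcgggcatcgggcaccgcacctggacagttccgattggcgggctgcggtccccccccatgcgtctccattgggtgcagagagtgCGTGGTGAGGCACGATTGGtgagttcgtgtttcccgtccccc
Asns, chr6:7693214-7693243, minus strand: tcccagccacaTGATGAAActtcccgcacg
Chac1, chr2:119350992-119351228, plus strand: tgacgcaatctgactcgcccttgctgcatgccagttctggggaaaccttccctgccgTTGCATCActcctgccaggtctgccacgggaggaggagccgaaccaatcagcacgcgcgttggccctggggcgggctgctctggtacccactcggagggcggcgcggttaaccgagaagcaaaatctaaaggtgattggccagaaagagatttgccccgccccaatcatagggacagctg

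Hspa5 held 1 stress element, at bases -65 to -47 from the start, in what GENCODE M21 annotates as exon of a transcript that starts further upstream. Hsp90b1 held 2, at -212 to -194 and, read on the other strand, at -107 to -89, both upstream of annotated exons of the gene. Of all 32851 promoters, 0.113% held this element. The ATF4 element matched Asns at -23 to -16, also inside an annotated exon, and Chac1 on the other strand at -193 to -186, while 3.45% of all promoters held it. No match overlapped another. The letters of neither element were in the windows of Atf4, Ddit3, Trib3, Dnajb9 or Xbp1, and those of the XBP1 element TGACGTGG, found in 0.563% of promoters, were in none of the 9. All 250 bases of the Dnajb9 window lay in annotated exons, inside the gene as GENCODE M21 places it, so the bases upstream of that gene were not searched. In the Ddit3 window 181 bases lay in annotated exons of Ddit3 or Gm4189. A match is a description of letters and not a site shown to be used in these cells.

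Total counts per library lay between 13474439 and 19886202, and levels below are CPM, counts scaled to the library total with edgeR's TMM factors. The reporter transcript tdTomato averaged 3705 ± 461 CPM in Tomato-positive and 111 ± 29.4 CPM in Tomato-negative libraries (SD, n = 4 each). Cdkn2a averaged 1.17 ± 1.11 CPM in Tomato-positive and 1.06 ± 0.949 CPM in Tomato-negative libraries (SD, n = 4 each). Markers of the labelled cell type were present in every library, and so were those of other segments of the nephron. The summed level of 12 proximal tubule markers was 4337 to 13193 CPM in Tomato-positive and 6404 to 28380 CPM in Tomato-negative libraries, lower in the Tomato-positive library of 4 of 4 pairs. That of 8 principal cell markers was 1055 to 5382 CPM in Tomato-positive and 231 to 2346 CPM in Tomato-negative libraries. In the edgeR fit paired by identifier 8 of 8 rose, against 3.82% of all genes. Markers of the thick ascending limb summed to 1837 to 6855 CPM in Tomato-positive and 4182 to 14269 CPM in Tomato-negative libraries. Of these, 5 of 7 fell in the paired fit, against 3.81% of all genes. No proximal tubule, principal cell or thick limb marker was at 0 in every library. The part that this mixture plays in the stress genes was not tested, and in bulk RNA fewer cells of a type and less RNA per cell cannot be told apart.

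The question of this comparison is whether the Tomato-positive cells carried a different level of the stress response than their Tomato-negative neighbours. None of the 10 genes was called as changed with the reporter in the fits over all libraries, which does not show that their levels were equal. In the unpaired edgeR quasi-likelihood test 0 of 10 passed the Benjamini-Hochberg threshold of 0.05, against 0.595% of all genes tested, and 0 of 10 had an unadjusted p under 0.05, against 17.8% of all genes. In the fit paired by identifier 0 of 10 passed, against 7.62% of all genes, and 1 of 10, Chac1, had an unadjusted p under 0.05, against 25% of all genes. DESeq2 also called 0 of 10, against 7% of all genes unpaired and 14.2% paired, and limma-voom 0 of 10, against 0.644% unpaired and 9.72% paired. The libraries of the 2 Tomato groups overlapped for 10 of 10 genes, while they did not overlap for 13.2% of all genes. The median log2 difference of the 10 genes was -0.028 unpaired and -0.019 paired, beside 0.0075 and 0.0056 over all genes.

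**Figure D1:**
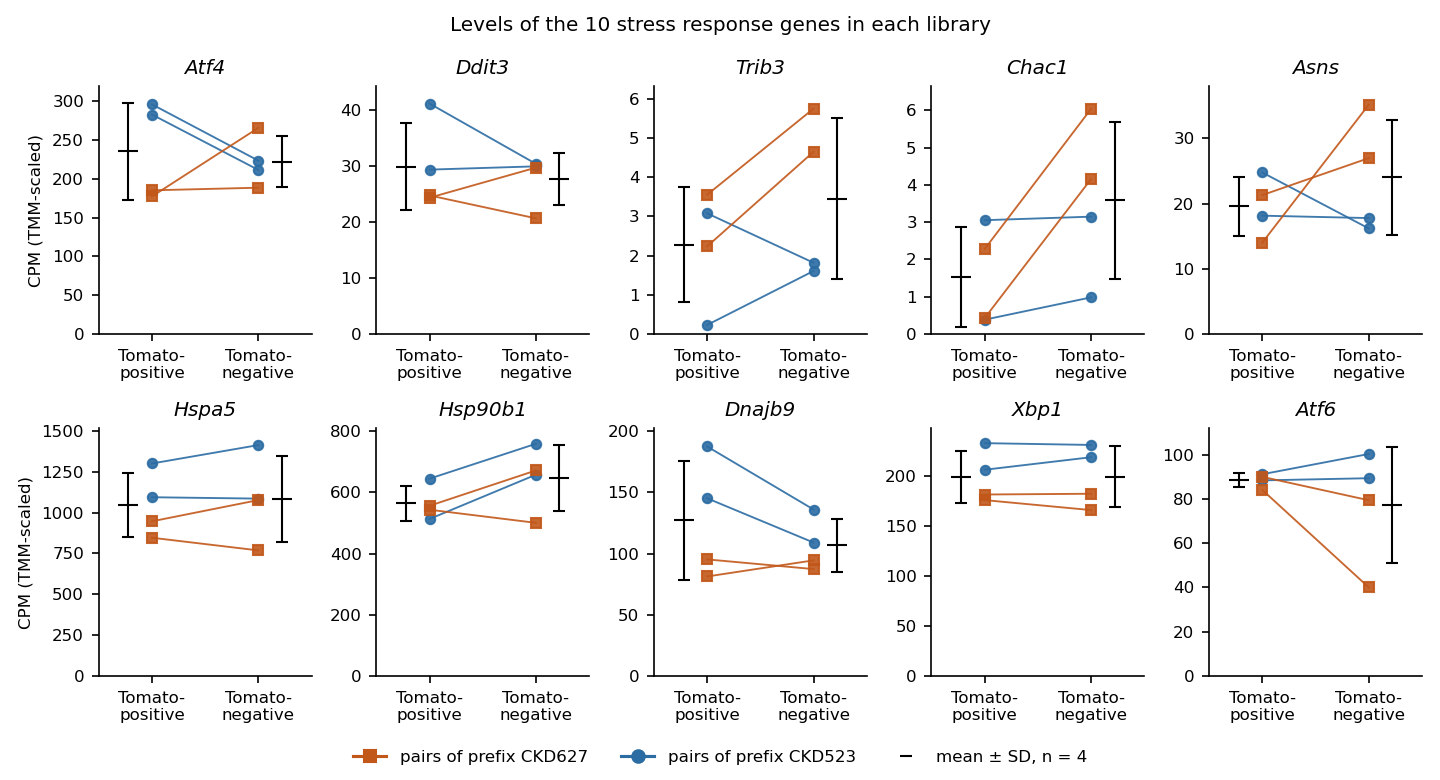
Level of each of the 10 genes in CPM (linear axes from 0) in the 4 Tomato-positive and the 4 Tomato-negative libraries, with lines joining libraries of 1 identifier and bars for the mean ± SD (n = 4). Tomato-positive and Tomato-negative libraries overlap in all 10 panels. The lines of Atf4, Asns and Atf6 run in opposite directions in prefixes CKD627 and CKD523, as do those of 13.7% of all genes. Those of Atf4 in CKD627_2, Asns in CKD523_2 and Atf6 in CKD523_2 are nearly flat (log2 differences of -0.026, 0.030 and -0.016).

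Atf4, the transcription factor at the centre of the integrated stress response (mm10, chromosome 15, 80255184 to 80257541, plus strand), had 283, 296, 177 and 185 CPM in the Tomato-positive libraries CKD523_2, CKD523_3, CKD627_1 and CKD627_2. The Tomato-negative libraries of the same identifiers had 211, 223, 266 and 188 CPM. The highest values were those of the Tomato-positive CKD523 libraries, the lowest those of the Tomato-positive CKD627 libraries, and the Tomato-negative libraries lay between them. Its paired log2 difference was 0.056 ± 0.18 (SE), with 95% bounds of -0.36 and 0.47 (edgeR adjusted p = 0.884). Changes from 0.777-fold to 1.39-fold lie inside these bounds.

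Ddit3 encodes CHOP, a factor of the C/EBP family that ATF4 switches on and that favours cell death under long stress (chromosome 10, 127290774 to 127296288, plus strand). It had 29.3, 41.1, 24.3 and 24.7 CPM in the Tomato-positive libraries in the same order, against 29.9, 30.3, 29.7 and 20.6 CPM in the Tomato-negative libraries. Tomato-positive CKD523_3 stood highest and Tomato-negative CKD627_2 lowest, with the other six between 24.3 and 30.3 CPM. In the paired fit the log2 difference was 0.097 ± 0.17 (SE), with 95% bounds of -0.29 and 0.49 (edgeR adjusted p = 0.774). Exons of Ddit3 overlap Mars and Gm4189 on the other strand, and since the labels do not state whether counting used the strand, reads of these genes cannot be told apart.

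Trib3, a pseudokinase that ATF4 and CHOP switch on and that in turn restrains ATF4 (chromosome 2, 152337422 to 152344032, minus strand), had few counts. It had 3.08, 0.23, 3.55 and 2.23 CPM in the Tomato-positive libraries, which rest on 40, 4, 58 and 46 counts, and 1.82, 1.61, 5.74 and 4.65 CPM in the Tomato-negative libraries, which rest on 24, 25, 98 and 73 counts. The 2 Tomato-negative CKD627 libraries were the highest of the 8, and Tomato-positive CKD523_3 was the lowest. Within the pairs the Tomato-positive library was higher for CKD523_2 and lower for the other three. The log2 difference of the pairs was -0.83 ± 0.60 (SE), with 95% bounds of -2.20 and 0.54 (edgeR adjusted p = 0.435).

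Chac1, a cyclotransferase that breaks down glutathione and is a target of ATF4 (chromosome 2, 119351229 to 119354381, plus strand), gave the largest estimate of the 10 genes. The Tomato-positive libraries had 0.385, 3.05, 0.428 and 2.28 CPM, from 5, 53, 7 and 47 counts. The Tomato-negative libraries had 0.984, 3.15, 4.16 and 6.04 CPM, from 13, 49, 71 and 95 counts. The Tomato-positive library was the lower of its pair in 4 of 4 pairs, with log2 differences of -1.35, -0.044, -3.28 and -1.41, but the groups overlapped, since Tomato-negative CKD523_2 stood below the Tomato-positive libraries CKD523_3 and CKD627_2. Pairing by identifier gave a log2 difference of -1.45 ± 0.63 (SE), with 95% bounds of -2.88 and -0.0070. The unadjusted p of 0.0491 became an adjusted p of 0.198 (edgeR). DESeq2 with the same pairing gave an adjusted p of 0.0921 and limma-voom 0.193, so Chac1 is not counted as changed. The unpaired log2 difference was -1.21 (edgeR adjusted p = 0.448).

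Asns, the enzyme that makes asparagine and the classic target of ATF4 under lack of amino acids (chromosome 6, 7675169 to 7693254, minus strand), carries an ATF4 element in its promoter, shown above. It had 18.2, 24.8, 14.0 and 21.3 CPM in the Tomato-positive libraries and 17.8, 16.2, 35.2 and 27.0 CPM in the Tomato-negative libraries. The Tomato-negative CKD627 libraries were the highest of the 8, and the Tomato-positive library of CKD627_1 was the lowest. Across pairs the log2 difference was -0.25 ± 0.29 (SE), with 95% bounds of -0.91 and 0.41 (edgeR adjusted p = 0.634).

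Hspa5 encodes BiP, the main chaperone of the reticulum, which also holds the sensors inactive (chromosome 2, 34771970 to 34777547, plus strand). It was the most abundant of the 10 genes, at 1094, 1300.2, 946 and 846 CPM in the Tomato-positive libraries and 1085, 1413, 1076 and 768 CPM in the Tomato-negative libraries. In each Tomato group the CKD523 libraries stood above the CKD627 libraries, and within pairs the 2 groups differed little. Its paired log2 difference was -0.039 ± 0.13 (SE), with 95% bounds of -0.33 and 0.25 (edgeR adjusted p = 0.884), so that a fall below 0.795-fold and a rise above 1.19-fold lie outside the bounds.

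Hsp90b1 encodes GRP94, the HSP90 chaperone of the reticulum (chromosome 10, 86690209 to 86705509, minus strand). It had 513, 645, 557 and 544 CPM in the Tomato-positive libraries and 658, 759, 672 and 501 CPM in the Tomato-negative libraries. The Tomato-positive library was the lower one in 3 pairs and the higher one in CKD627_2. In the paired fit it differed by -0.19 ± 0.14 on the log2 scale (SE), with 95% bounds of -0.50 and 0.12 (edgeR adjusted p = 0.433). Its exons overlap Gm15344 and Gm25745 on the same strand and 1810014B01Rik on the other, whose reads may be mixed with its own.

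Dnajb9, also called ERdj4, is a co-chaperone of BiP that XBP1 switches on and that helps to bring misfolded proteins to degradation (chromosome 12, 44205559 to 44210326, minus strand). It had 145, 188, 81.3 and 95.3 CPM in the Tomato-positive libraries and 109, 136, 94.5 and 87.4 CPM in the Tomato-negative libraries. The 4 CKD523 libraries stood above the 4 CKD627 libraries, with the Tomato-positive ones at the top. The log2 difference of its pairs was 0.20 ± 0.15 (SE), with 95% bounds of -0.15 and 0.54 (edgeR adjusted p = 0.462). The microRNA gene Mir5627 overlaps its exons on the other strand.

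Xbp1, whose transcript IRE1 splices (chromosome 11, 5520659 to 5525893, plus strand), had 206, 233, 176 and 182 CPM in the Tomato-positive libraries and 219, 231, 166 and 182 CPM in the Tomato-negative libraries. Libraries of the same identifier lay close to each other, and the prefixes stood apart. Its paired log2 difference was 0.0011 ± 0.12 (SE), with 95% bounds of -0.28 and 0.28 (edgeR adjusted p = 0.997), which leaves changes between 0.826-fold and 1.21-fold inside. Counts per gene add spliced and unspliced Xbp1 together.

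Atf6, the sensor that becomes a transcription factor once cut (chromosome 1, 170704674 to 170867771, minus strand), had 88.4, 91.2, 84.1 and 90.0 CPM in the Tomato-positive libraries and 89.4, 100.3, 40.0 and 79.4 CPM in the Tomato-negative libraries. Tomato-negative CKD627_1 stood apart at the bottom, and the others lay within a narrow band. In the paired fit the log2 difference was 0.27 ± 0.20 (SE), with 95% bounds of -0.19 and 0.73 (edgeR adjusted p = 0.452).

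**Figure D2:**
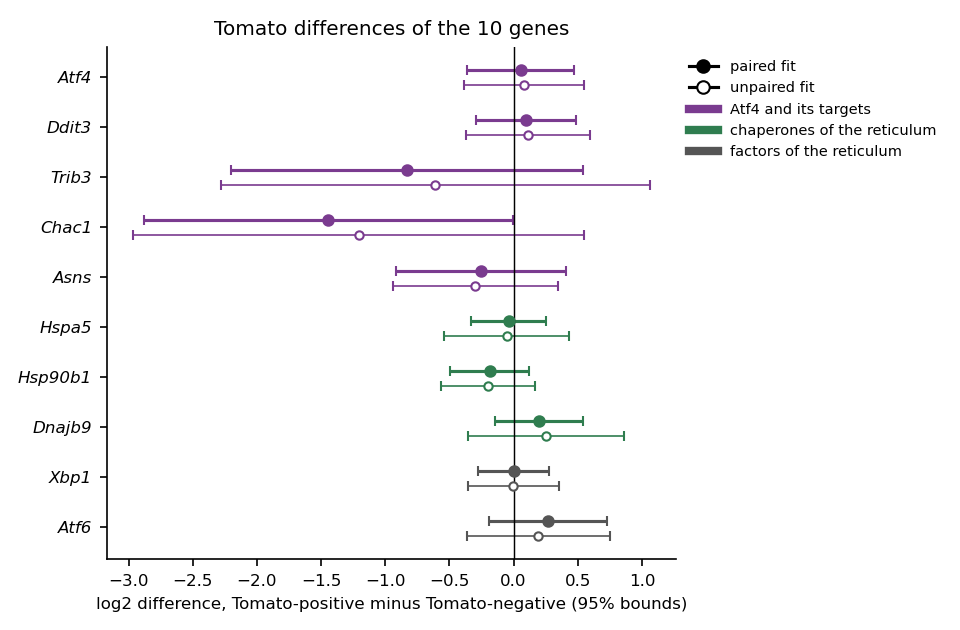
Log2 difference of Tomato-positive minus Tomato-negative for the 10 genes, with 95% bounds, from the paired fit (filled) and the unpaired fit (open), coloured by role. The bounds include 0 in every case except Chac1 in the paired fit, whose upper bound is -0.0070, and they are widest for Trib3 and Chac1, the genes with the fewest counts.

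Per kilobase of annotated exons, the levels followed the order Hspa5, Hsp90b1, Atf4, Xbp1, Dnajb9, Ddit3, Atf6, Asns, Trib3 and Chac1 in Tomato-positive libraries. Hspa5 stood at 247 ± 46.7 CPM per kilobase in Tomato-positive and 257 ± 62.2 CPM per kilobase in Tomato-negative libraries (SD, n = 4 each). Atf4 stood at 99.8 ± 26.6 CPM per kilobase in Tomato-positive and 94.2 ± 13.7 CPM per kilobase in Tomato-negative libraries. Its targets were far lower: Ddit3 reached 17.4 ± 4.57 CPM per kilobase in Tomato-positive and 16.1 ± 2.73 CPM per kilobase in Tomato-negative libraries. For Chac1 the values were 0.939 ± 0.820 CPM per kilobase in Tomato-positive and 2.19 ± 1.29 CPM per kilobase in Tomato-negative libraries. Neighbours in this order whose ranges of mean ± SD overlapped in Tomato-positive libraries were Hsp90b1 and Atf4, Xbp1 and Dnajb9, and Trib3 and Chac1. In Tomato-negative libraries the order of Atf6 and Asns, and that of Trib3 and Chac1, was the other way round, within their SDs.

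The ATF4 targets were then set against the chaperones in each library, as the mean log2 CPM of Ddit3, Trib3, Chac1 and Asns minus that of Hspa5, Hsp90b1 and Dnajb9. This level was -6.32, -6.53, -6.09 and -5.57 in the Tomato-positive libraries CKD523_2, CKD523_3, CKD627_1 and CKD627_2, and -6.20, -6.18, -5.00 and -4.83 in the Tomato-negative libraries of the same identifiers. The targets thus stood lower against the chaperones in the Tomato-positive library of 4 of 4 pairs, with differences of -0.12, -0.36, -1.08 and -0.74 on the log2 scale, and the groups overlapped. The chaperones alone differed within pairs by 0.022, 0.036, -0.22 and 0.13. Without Trib3 and Chac1, the least abundant targets, the level of Ddit3 and Asns against the chaperones differed within pairs by -0.021, 0.49, -0.58 and -0.17, lower in the Tomato-positive library of 3 of 4 pairs and by less than with all 4 targets in these. These values describe the libraries and carry no test.

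Other genes of the pathways were read from lists of known members. Of 40 tested genes on lists downstream of ATF4, 4 rose and 2 fell in the paired edgeR fit, against 3.82% and 3.81% of all genes, and their median log2 difference was -0.044. Without the pair CKD523_2, CKD523_3 or CKD627_2 the paired fit called 1, 0 and 1 of the 40. At most 1 of the 6 calls named next thus held in each of these fits. Calls over all genes fell as well, from 1089 with all pairs to 521, 203 and 384 in the same order. Of all 153 tested genes on the 12 stress lists, unpaired edgeR called 0 and unpaired limma-voom 0, against 0.595% and 0.644% of all genes. Unpaired DESeq2 called 11, namely 7 immediate early genes, 2 mitochondrial chaperones or proteases, Wfs1 and Cth, against 7% of all genes. Paired limma-voom called 14 higher and 5 lower, against 9.72% of all genes in either direction. Among 12 stress regulators, 1 rose: Gdf15, a secreted stress cytokine, with a log2 difference of 0.92 ± 0.18 (SE; edgeR adjusted p = 0.0218, higher in 4 of 4 pairs). Among 6 amino acid transporters, 2 rose. Slc7a1, a carrier of cationic amino acids, averaged 138 ± 40.6 CPM in Tomato-positive and 84.0 ± 19.5 CPM in Tomato-negative libraries (SD, n = 4 each), a paired log2 difference of 0.70 ± 0.15 (SE; edgeR adjusted p = 0.0272). Slc38a2, a carrier of neutral amino acids, averaged 392 ± 111 CPM in Tomato-positive and 258 ± 39.3 CPM in Tomato-negative libraries, with a log2 difference of 0.57 ± 0.14 (SE; edgeR adjusted p = 0.0426).

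Among 10 genes of amino acid and one-carbon synthesis, 1 rose and 2 fell. Psat1, an enzyme of serine synthesis, averaged 112 ± 52.5 CPM in Tomato-positive and 77.9 ± 46.5 CPM in Tomato-negative libraries (SD, n = 4 each), with a paired log2 difference of 0.61 ± 0.14 (SE; edgeR adjusted p = 0.0382). Cth, which makes cysteine from cystathionine, fell to 25.7 ± 7.31 CPM in Tomato-positive libraries, against 61.8 ± 34.0 CPM in Tomato-negative libraries (log2 -1.14 ± 0.20, edgeR adjusted p = 0.0147). Aldh1l2, the mitochondrial enzyme that oxidises formyl-tetrahydrofolate, fell to 10.8 ± 8.22 CPM in Tomato-positive libraries, against 38.1 ± 27.2 CPM in Tomato-negative libraries (log2 -1.85 ± 0.38, edgeR adjusted p = 0.0244). Members of this list thus moved in both directions. Of 12 aminoacyl-tRNA synthetases, which charge tRNAs and of which ATF4 switches on many, 0 passed in the paired edgeR fit. Their median was -0.10, and Yars had the smallest p (log2 -0.29 ± 0.14, edgeR adjusted p = 0.242).

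The wider machinery of the reticulum did not pass the test either. Of 56 tested genes for chaperones, disulfide formation, degradation and translocation, 0 were called in the paired edgeR fit, against 7.62% of all genes, 0 in the unpaired fit, and 4 in paired DESeq2, all lower in Tomato-positive libraries, against 7.39% of all genes. Their estimates leaned to 1 side, with 46 of 56 below 0 and a median of -0.20, while 7065 of 14284 genes lay below 0 over the whole table. Tomato-positive libraries lay below all Tomato-negative libraries for 9 of 56 genes, against 6.48% of all genes. The genes with the smallest p of their lists were Sil1, a partner of BiP (paired log2 -0.51 ± 0.20, edgeR adjusted p = 0.149), Erp29, a folding factor of the disulfide isomerase family (-0.47 ± 0.15, adjusted p = 0.0926), Selenok, a selenoprotein of the degradation machinery (-0.72 ± 0.23, adjusted p = 0.0909), and Sec11a, a catalytic subunit of the signal peptidase (-0.50 ± 0.15, adjusted p = 0.0811). Erp29 had 97.7, 85.7, 101 and 92.5 CPM in Tomato-positive libraries and 109, 123, 179 and 119 CPM in Tomato-negative libraries, and these did not overlap.

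Of 20 tested genes for the sensors, the eIF2 kinases and the control of eIF2, 1 rose in the paired edgeR fit, against 3.82% of all genes. Wfs1, a membrane protein of the reticulum that restrains ATF6, had 190, 232, 127 and 98.8 CPM in Tomato-positive libraries and 80.3, 65.6, 59.6 and 73.2 CPM in Tomato-negative libraries. All Tomato-positive libraries stood above all Tomato-negative ones. Pairing gave a log2 difference of 1.15 ± 0.21 (SE; edgeR adjusted p = 0.0157), and the unpaired one of 1.22 missed the threshold (edgeR adjusted p = 0.0631). Without the pair CKD523_2 or CKD523_3 the paired fit called 0 of the 20. Over all genes it called 521 and 203 there, against 1089 with all pairs. Ern1, which encodes the sensor IRE1 and is named here after its values were seen, averaged 32.4 CPM in Tomato-positive and 17.4 CPM in Tomato-negative libraries, which did not overlap. Its log2 difference of 0.96 ± 0.30 (SE) missed the threshold in edgeR (adjusted p = 0.0897) and passed in paired DESeq2 (adjusted p = 0.0206). Paired DESeq2 called 2 of the 20, against 14.2% of all genes.

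Of 12 mitochondrial chaperones and proteases, 2 fell in the paired edgeR fit, against 3.81% of all genes, and 12 of 12 estimates lay below 0, with a median of -0.43. Paired DESeq2 called 6 of 12 and limma-voom 3, all lower, against 14.2% and 9.72% of all genes in either direction. Without the pair CKD523_2, CKD523_3 or CKD627_2 paired edgeR called 0 of the 12. Over all genes it called 521, 203 and 384 there, against 1089 with all pairs. Hspd1, the mitochondrial chaperonin HSP60, fell to 189 ± 24.4 CPM in Tomato-positive libraries, against 290 ± 79.2 CPM in Tomato-negative libraries (SD, n = 4 each; log2 -0.58 ± 0.14, edgeR adjusted p = 0.0415). Trap1, the mitochondrial HSP90, had 163, 135, 130 and 135 CPM in Tomato-positive libraries and 216, 231, 183 and 180 CPM in Tomato-negative libraries, a log2 difference of -0.53 ± 0.13 (SE; edgeR adjusted p = 0.0439). For Trap1 the groups did not overlap.

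Of 14 cytosolic heat shock proteins, 3 rose in the paired edgeR fit, namely Hspa1b (log2 0.90 ± 0.17, edgeR adjusted p = 0.0161), Dnajb1 (0.74 ± 0.15, adjusted p = 0.0227) and Hspa1a (0.67 ± 0.17, adjusted p = 0.0485), which belong to the inducible HSP70 system; 3.82% of all genes rose. Without the pair CKD523_2, CKD523_3 or CKD627_2 the paired fit called 0 of the 14. Over all genes it called 521, 203 and 384 there, against 1089 with all pairs. Hspa1a and Hspa1b are near-identical copies, and the labels do not state how reads matching both were counted. Of 12 immediate early genes, which are switched on within minutes of many stimuli, cell dissociation included, 5 rose in the paired edgeR fit. It called 1 of them when CKD523_2, CKD523_3 or CKD627_2 was left out, where the calls over all genes fell as given above. Without CKD627_1 it called 9 of them, and 1319 of all genes. Tomato-positive libraries lay above all Tomato-negative ones for 8 of these 12, against 6.74% of all genes. Their summed level was 16937 to 21949 CPM in Tomato-positive and 12769 to 13520 CPM in Tomato-negative libraries. Fosb, a subunit of AP-1, had the smallest p (log2 1.01 ± 0.13, edgeR adjusted p = 0.00443), followed by Nr4a1, Egr1 and Zfp36. The part of cell handling in the levels of the stress genes was not tested.

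**Figure D3:**
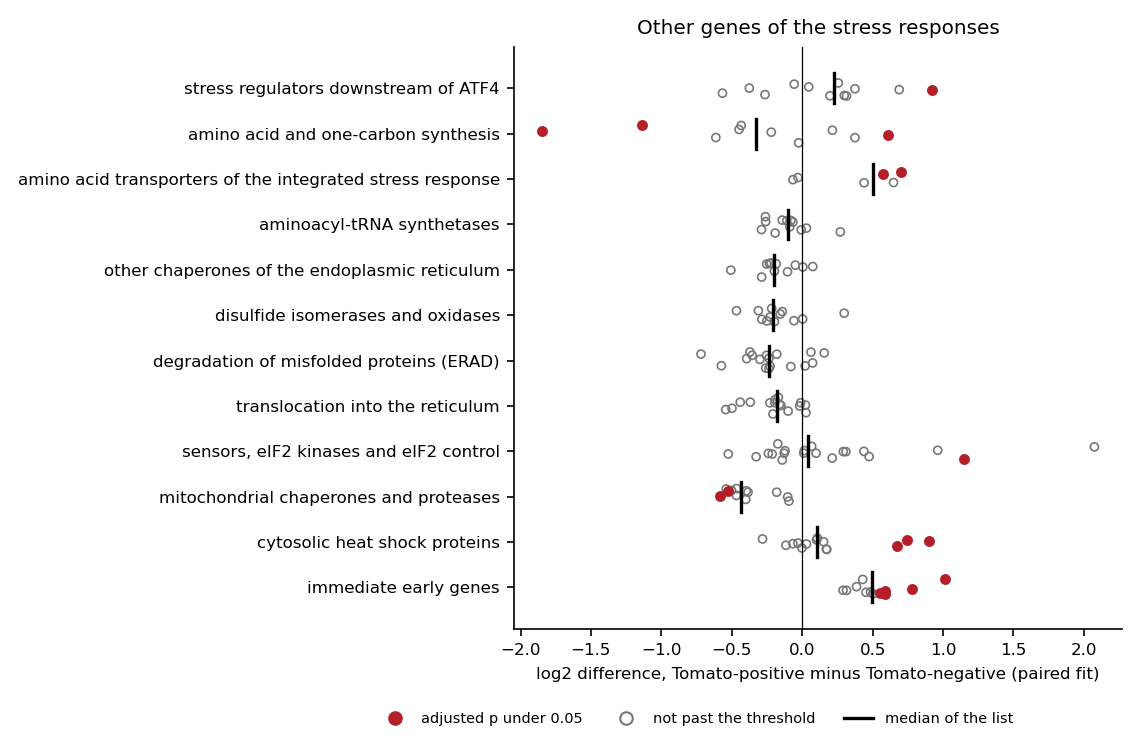
Paired log2 difference of Tomato-positive minus Tomato-negative for the tested genes of 12 lists (1 point per gene, filled where the edgeR adjusted p is under 0.05, with a bar for the list's median). The 4 lists of chaperones, disulfide formation, degradation and translocation have medians between -0.24 and -0.18 and no filled point, while the immediate early genes have a median of 0.49 and 5 filled points.

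The libraries also split by the prefix of their titles, and the chaperone Dnajb9 was lower in CKD627. In edgeR with the Tomato group as a covariate, 1 of 10 genes passed between CKD627 and CKD523, against 21.1% of all genes. This fit, and those of limma-voom and DESeq2 below, were not paired by identifier. They counted the Tomato-positive and Tomato-negative libraries of an identifier as independent. Whether these deviated together beyond their prefix was not tested, and if they did, the p-values may be too small. Dnajb9 fell to 89.6 ± 6.57 CPM in CKD627 libraries, against 144 ± 32.6 CPM in CKD523 libraries (SD, n = 4 each), a log2 difference of -0.67 ± 0.15 (SE; edgeR adjusted p = 0.00902). Hspa5 averaged 909 ± 133 CPM in CKD627 and 1223 ± 161 CPM in CKD523 libraries, a log2 difference of -0.43 that missed the threshold in edgeR (adjusted p = 0.0579). Xbp1 averaged 177 ± 7.55 CPM in CKD627 and 222 ± 12.4 CPM in CKD523 libraries, with a log2 difference of -0.33 (edgeR adjusted p = 0.0535). For these 3 genes, and for 10.4% of all genes, every CKD627 library lay below every CKD523 library. limma-voom called all 3, against 22% of all genes (adjusted p = 0.0463 for Hspa5 and 0.0450 for Xbp1), and so did DESeq2, against 25.9% (0.0219 and 0.0100). Without Tomato-negative CKD627_1, edgeR called 5 of 10 genes and 21.8% of all genes, with Atf4 (-0.49, adjusted p = 0.0125) and Ddit3 (-0.54, adjusted p = 0.0299) beside those 3. Without Tomato-positive CKD523_2 edgeR called Trib3 (2.19, adjusted p = 0.0270) beside Dnajb9, and 16.7% of all genes. Markers of cell types moved with the prefix as well: 11 of 12 proximal tubule markers were lower, and 7 of 8 principal cell markers higher, in CKD627. The part of this in the stress genes was not tested.

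Within prefix CKD523, 1 of 10 genes passed in edgeR, against 15.7% of all genes. Atf4 rose there, with a log2 difference of 0.41 ± 0.11 (SE; edgeR adjusted p = 0.0313) and 0.42 and 0.41 in the 2 pairs. Within prefix CKD627, 0 of 10 genes passed in edgeR, against 2.43% of all genes, with 2 of 10, Chac1 and Asns, at an unadjusted p under 0.05, against 20.5% of all genes. The Atf4 difference there was -0.36 ± 0.23 (SE; edgeR adjusted p = 0.392). Each of these fits rests on 2 libraries per Tomato group and was not paired by identifier.

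An interaction term, in a fit not paired by identifier, tested whether the prefixes differed in the size of the Tomato difference. None of the 10 genes passed in edgeR, limma-voom or DESeq2, against 0.014%, 0.035% and 1.96% of all genes, and 2 of 10, Atf4 and Asns, had an unadjusted p under 0.05 in edgeR, against 13.2% of all genes. For Atf4 the difference in CKD627 minus that in CKD523 was -0.74 ± 0.25 on the log2 scale (SE; edgeR adjusted p = 0.279). For Asns it was -1.15 ± 0.39 (SE; edgeR adjusted p = 0.275), from pair differences of -1.33 and -0.34 in CKD627 and 0.030 and 0.61 in CKD523. For both genes the pair differences lay above 0 in CKD523 and below 0 in CKD627. Asns differed by only 0.030 in CKD523_2, however, and Atf4 by only -0.026 in CKD627_2. The size of the interaction depended on single libraries. With all libraries it was -0.74 for Atf4 and 0.62 for Atf6. Without Tomato-negative CKD627_2 it was -0.97 for Atf4 and 1.20 for Atf6, and without Tomato-negative CKD627_1 it was -0.46 and 0.22. Such a fit holds a single library in 1 Tomato group of a prefix, assumed to vary like the others. Calls are therefore not compared there.

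The stress regulators downstream of ATF4 also differed between prefixes in their estimates. Their median Tomato difference was -0.025 in CKD627 and 0.58 in CKD523, beside -0.012 and 0.0030 over all genes. Of 12 regulators, 8 had an unadjusted interaction p under 0.05, against 13.2% of all genes, and 0 passed the adjustment in edgeR. Ddit4, an inhibitor of mTORC1 that is induced by stress, had Tomato differences of 0.018 in CKD627 and 1.33 in CKD523 (interaction adjusted p = 0.174 in edgeR). Ppp1r15a, or GADD34, which guides the phosphatase back to eIF2, had 0.0068 in CKD627 and 0.70 in CKD523 (interaction adjusted p = 0.258 in edgeR). Nupr1, a stress-induced chromatin factor, had -1.46 in CKD627 and 0.80 in CKD523 (interaction adjusted p = 0.174 in edgeR). Atf5, which like Atf4 is controlled in translation, had -1.05 in CKD627 and -0.084 in CKD523 (interaction adjusted p = 0.258 in edgeR). Vldlr, a lipoprotein receptor, ran the other way, with 0.30 in CKD627 and -0.45 in CKD523 (interaction adjusted p = 0.280 in edgeR). These 5 were chosen after their values were seen. Leaving out 1 library leaves a single library in 1 Tomato group of a prefix, and the share of all genes moved as well. The count of regulators is therefore not compared there. The proximal tubule markers were also split, with a median Tomato difference of 0.22 in CKD627 and -0.88 in CKD523 and 10 of 12 at an unadjusted interaction p under 0.05; their part in the split of the stress genes was not tested.

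**Figure D4:**
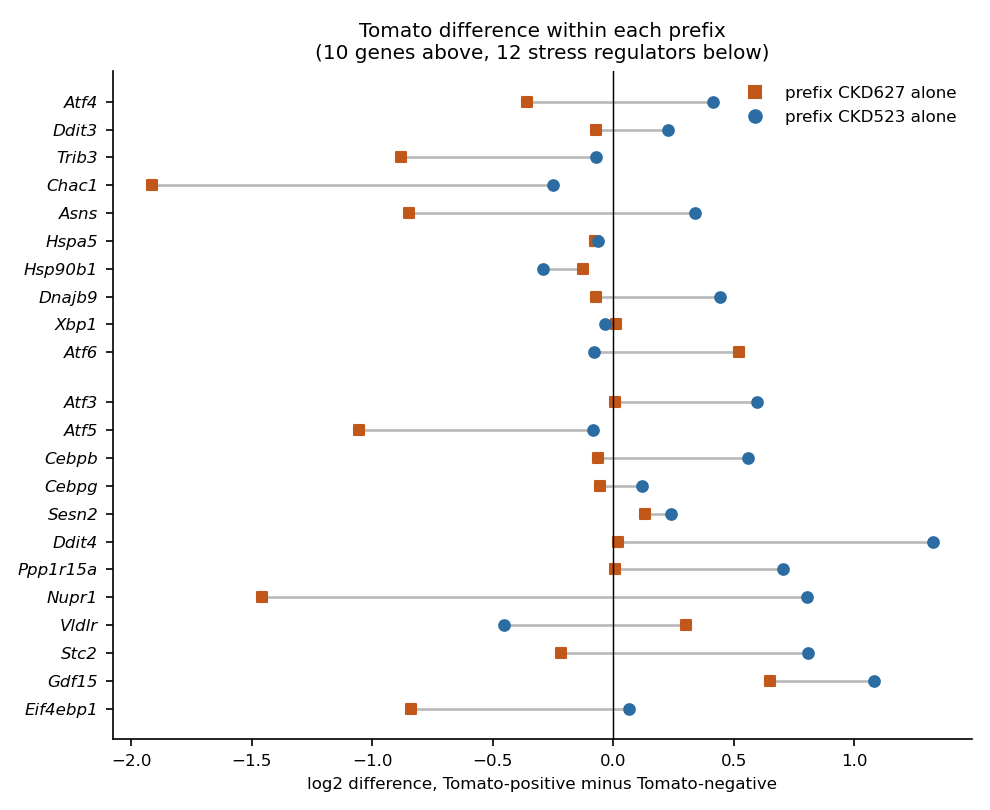
Log2 difference of Tomato-positive minus Tomato-negative within prefix CKD627 (squares) and within prefix CKD523 (circles) for the 10 genes and, beneath them, 12 stress regulators downstream of ATF4, each from 2 libraries per Tomato group. Atf4 lies at -0.36 in CKD627 and 0.41 in CKD523 and Asns at -0.85 and 0.34, while Hspa5 and Xbp1 lie near 0 in both prefixes.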

How the data were processed

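The deposited file held raw counts per gene symbol for 8 libraries. Reads were aligned with subread, per the file headers; the submitters' processing notes name mm10 as the build and limma 3.46.0 and edgeR 3.32.1 as tools of the authors. Which program counted the reads, with which annotation and strand setting, and what was done with reads of several matches is not stated. The labels' protocols name a Norgen single-cell RNA kit and NEBNext Ultra libraries.

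Genes passing edgeR's filterByExpr (14284 of 25240; at least 10 counts in 4 libraries and 15 over all) were tested with the 2-sided quasi-likelihood test of edgeR 4.0.16 under R 4.3.3, with TMM scaling and Benjamini-Hochberg adjustment over all of them at 0.05. The main fit had no block. Same-numbered libraries deviated together from the means of their Tomato groups (correlations of 0.464, 0.321, 0.330 and 0.465, all above 0.1). The titles' identifier therefore served as a replicate block in the paired fit. Libraries of 1 prefix with different identifiers correlated about as much (0.296 to 0.467). These correlations include any difference between the prefixes, so they do not show that an identifier's libraries deviated together beyond their prefix. Libraries of different prefixes and Tomato groups correlated at -0.582 to -0.307 in the same deviations. The first principal component held 40.9% of the variance. Libraries of 1 group differed beyond sampling noise (chi-square over its degrees of freedom 16.2 to 202). One CPM stood for 13.0 to 20.6 counts, and depth sets counting error only.

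The 10 genes, the 25 gene lists and the tests were chosen with earlier results of these data known. Named were the 10 genes, tdTomato and Cdkn2a, and, of each stress list, up to 4 genes per direction with the smallest paired p among those past the threshold, or the 1 with the smallest p where none passed. Alternatives were DESeq2 1.42.0, limma-voom 3.58.1, other scaling and filters, each prefix alone and leaving out libraries or pairs. Principal components, correlations and the level of targets against chaperones used log2 CPM with a prior count of 2. The fits were tested on simulated counts. Exon lengths and positions came from GENCODE M21 (GRCm38), promoters from RefSeq.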

Additional observations from a re-analysis of the deposited data

Results flagged for a closer look

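Ddit3 had 20.6 CPM in Tomato-negative CKD627_2, far below the other three Tomato-negative libraries, whose values were 29.9, 30.3 and 29.7 CPM. Of 20 sets of 4 libraries looked at (10 genes in each Tomato group), 1 held such a distant library, and chance gives about 1 in 20.

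For Atf4, Asns and Atf6 both pairs of CKD627 moved one way and both pairs of CKD523 the other way, as did 13.7% of all genes. The Tomato difference in CKD627 minus that in CKD523 was -0.74 for Atf4 (edgeR interaction, adjusted p = 0.279), -1.15 for Asns (adjusted p = 0.275) and 0.62 for Atf6 (adjusted p = 0.485) on the log2 scale, so the difference between prefixes did not pass for any of them. The Atf6 value rests on Tomato-negative CKD627_1, the lowest library at 40.0 CPM: without it the value was 0.22.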

How the results depend on the processing

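No member was called under any alternative of the unpaired or paired fit, except Atf4 in prefix CKD523 alone (1 gene called, log2 0.41). Of 258 estimates for single members under the alternatives, 225 kept their direction and side of the threshold, 32 changed sign, and 1 was the Atf4 rise. The cause of these changes was not tested, beyond fewer libraries or genes where those were left out.

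Over all genes the unpaired test called 85. It called 1089 with the replicate block (the paired fit), 1527 with the prefix as a covariate, 2236 in CKD523 alone, 347 in CKD627 alone, 1000 with DESeq2, 45 with no filter, and 6 to 26 without 1 library. The paired fit called 2026 genes with DESeq2 and 203 to 1319 without 1 pair. Of the ATF4 lists it called 6 genes, and 0 to 7 without 1 pair; of the reticulum lists 0, and 4 with DESeq2; of the sensors and eIF2 control 1, 2 with DESeq2, and 0 to 1 without 1 pair; of the mitochondrial list 2, 6 with DESeq2, and 0 to 3 without 1 pair; of the heat shock proteins 3, and 0 to 3 without 1 pair; of the immediate early genes 5, 8 with DESeq2, and 1 to 9 without 1 pair. Leaving out any pair but CKD627_1 took the heat shock calls to 0 and the immediate early calls to 1; without CKD523_2, CKD523_3 or CKD627_2 the ATF4 lists had 1, 0 and 1 calls. Between prefixes 1 member was called, against 2 with RLE factors, 3 with limma-voom, 3 with DESeq2 and 1 to 5 without 1 library. The interaction called 0 members with all libraries. Without 1 library a prefix keeps a single library in 1 Tomato group, so calls are not compared there.

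Signs changed for 7 of the 10 genes, the largest move being that of Asns. In CKD627 alone the log2 difference was -0.36 for Atf4, -0.071 for Ddit3, -0.073 for Dnajb9 and 0.0096 for Xbp1, and in CKD523 alone 0.34 for Asns and -0.080 for Atf6. Without 1 library the unpaired values ranged over -0.049 to 0.20 for Atf4, -0.083 to 0.20 for Ddit3, -0.19 to 0.090 for Hspa5, -0.088 to 0.068 for Xbp1 and -0.024 to 0.34 for Atf6. Without 1 pair the paired values ranged over -0.088 to 0.27 for Atf4, -0.044 to 0.23 for Ddit3, -0.57 to 0.098 for Asns, -0.099 to 0.0096 for Hspa5 and -0.028 to 0.024 for Xbp1. Unpaired Xbp1 (-0.0027) was 0.0011 with the replicate block, 0.0015 with the prefix as a covariate, 0.00078 with limma-voom, 0.041 by library size only and 0.0025 when genes under a mean of 5 CPM were dropped. Paired Xbp1 was -0.013 with DESeq2 and -0.013 with RLE factors, and paired Hspa5 5.08e-05 by library size only. At 4 to 98 counts per library, Trib3 and Chac1 had the widest bounds of the 10 genes.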
